A study of Mus musculus with 8 samples.

Results

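The *Dlx* genes encode homeodomain transcription factors, the vertebrate relatives of *Drosophila* Distal-less, and bind DNA at sites built around TAATT. In mice they lie in linked pairs that face each other tail to tail, *Dlx1* with *Dlx2*, *Dlx3* with *Dlx4*, and *Dlx5* with *Dlx6*. The nested expression of these pairs along the pharyngeal arches sets upper and lower jaw identity. In the tooth, *Dlx1* and *Dlx2* act in early tooth germs, *Dlx5* and *Dlx6* in lower jaw mesenchyme and in cells that form bone and dentin, and *Dlx3* in ameloblasts, odontoblasts, epidermis and the hair shaft. The family was taken as the rows of the expression table named *Dlx1* to *Dlx6*, which gave 6 members among the 23358 rows. All 6 members passed the filter on low values, which asked for 1 RPKM (reads scaled to gene length and library total) or more in 2 or more of the 8 libraries, and were tested among 14148 genes.

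The RNA was taken from mouse incisors, at the cervical loop (CL), from which the tooth keeps growing. The head (CLH) holds dental epithelial stem cells and the tail (CLT) holds their progenies. The mice were 4 weeks old, of C57BL/6 background, with the sexes not distinguished. In *Med1* cKO mice, Cre recombinase driven by the *Krt14* promoter, which is active in epithelial cells, removes floxed exons 8 to 10 of *Med1*, a subunit of the Mediator coactivator complex. The Ctrl mice were Cre-negative littermates. Cre acts in epithelial cells, while the dissected tissue also holds mesenchyme, and CL tissues of several mice were pooled for each group. Each of the 4 groups had 2 libraries, Ctrl CLH, cKO CLH, Ctrl CLT and cKO CLT, with totals from about 26590000 to about 34420000 reads. The groups of a region share no library with those of the other region, whereas each group enters both a cKO and a region comparison, so that comparisons sharing a group are not independent.

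The targeted gene was examined first. *Med1* was at 7.71 and 9.12 RPKM in Ctrl CLH, with 7.10 and 7.03 in cKO CLH. In CLT the gene had 4.83 and 8.71 RPKM in Ctrl, and 9.15 and 8.96 RPKM in the libraries labelled cKO CLT. The cKO libraries were lower than Ctrl in CLH and higher in CLT, and neither difference passed the test, the log2 fold change being -0.22 (SE 0.11, adjusted p = 0.71) in CLH and 0.42 (SE 0.30, adjusted p = 0.36) in CLT. The CLT value was 0.05 without the library Ctrl CLT 1 (adjusted p = 0.71) and 0.79 without Ctrl CLT 2 (adjusted p = 0.0040), where *Med1* was called higher in cKO. Exons 8 to 10 make up 4.09% of the principal *Med1* transcript in the GENCODE M21 annotation, and an RPKM over the whole gene therefore does not check the deletion.

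The libraries labelled cKO CLT were low in genes that mark incisor tissue at this site. The 10 enamel genes listed for this work, among them those encoding the enamel matrix proteins, summed to 84659 and 37531 RPKM in Ctrl CLT, with 47.9 and 41.2 RPKM in cKO CLT. *Dspp*, the gene for the main noncollagenous dentin proteins, was at 543 and 644 RPKM in Ctrl CLT, against 0.14 and 0.17 RPKM in cKO CLT. The keratin gene *Krt14*, whose promoter drives Cre, was present at 543 and 275 RPKM in Ctrl CLT, against 558 and 649 RPKM in cKO CLT.

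Library Ctrl CLT 1 stood apart from Ctrl CLT 2 in the direction of the cKO CLT libraries for hair, epidermal and muscle genes. The 13 measured hair genes summed to 3954 RPKM in Ctrl CLT 1 and 15.8 RPKM in Ctrl CLT 2, against 11672 and 12750 RPKM in cKO CLT and 11.9 to 14.5 RPKM over the CLH libraries. The median absolute log2 difference between the pair of libraries of a group, over all genes tested, was 0.40 in Ctrl CLT and 0.09, 0.11 and 0.11 in Ctrl CLH, cKO CLH and cKO CLT. The comparisons in CLT are therefore also given without Ctrl CLT 1, where 31.4% of all genes tested were called higher and 38.1% lower in cKO, shares that stand behind each count given without it. The libraries compared in CLT thus also differ in these tissue markers, against the label of a single tissue, and whether other tissue was mixed into them was not tested. The tests rest on 2 pools a group, and their p-values reflect the spread between these libraries alone. In bulk tissue, fewer cells of a type and less RNA per cell cannot be told apart.

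*Dlx5* and *Dlx6*, the pair that acts in the lower jaw, were nearly absent from cKO CLT. *Dlx5* was at 53.3 and 56.3 RPKM in Ctrl CLH, with 60.1 and 64.1 in cKO CLH. Its CLT values were 15.1 and 37.8 RPKM in Ctrl against 0.71 and 0.99 RPKM in cKO. *Dlx6* was at 18.7 and 24.2 RPKM in Ctrl CLH, with 17.5 and 20.2 in cKO CLH. In CLT it had 6.54 and 14.3 RPKM in Ctrl against 0 and 0.034 RPKM in cKO. The last 2 values stand for 0 and 1 read, against 205 and 406 reads in Ctrl CLT, where a library with no read allows up to 3. For both genes each cKO CLT library was below each other library, and Ctrl CLT 1 lay below Ctrl CLT 2.

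*Dlx1* and *Dlx2* had lower values in cKO CLT and were still present there. *Dlx1* was at 16.7 and 22.1 RPKM in Ctrl CLH, with 16.5 and 16.3 in cKO CLH. In CLT the gene had 11.4 and 17.4 RPKM in Ctrl against 4.61 and 3.54 RPKM in cKO. *Dlx2* was at 24.9 and 27.3 RPKM in Ctrl CLH, with 31.3 and 28.5 in cKO CLH. Its CLT values were 19.6 and 20.4 RPKM in Ctrl against 7.11 and 6.97 RPKM in cKO. *Dlx2* was thereby close in the Ctrl CLT libraries, unlike *Dlx1*.

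The genes of the remaining pair differed from each other in cKO CLT. *Dlx4*, a family member known from branchial arches and placenta, was at 49.2 and 47.1 RPKM in Ctrl CLH, with 50.9 and 54.3 in cKO CLH. In CLT it had 19.8 and 48.2 RPKM in Ctrl against 7.55 and 8.50 RPKM in cKO. *Dlx3*, its neighbour, was at 136.7 and 135.4 RPKM in Ctrl CLH, with 143.9 and 141.7 in cKO CLH. In CLT the gene had 124.8 and 120.5 RPKM in Ctrl against 133.6 and 140.3 RPKM in cKO. *Dlx4* was lowest in cKO CLT, whereas *Dlx3* was within a narrow range in the 8 libraries and was the most abundant member in each of them.

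**Figure D1:**
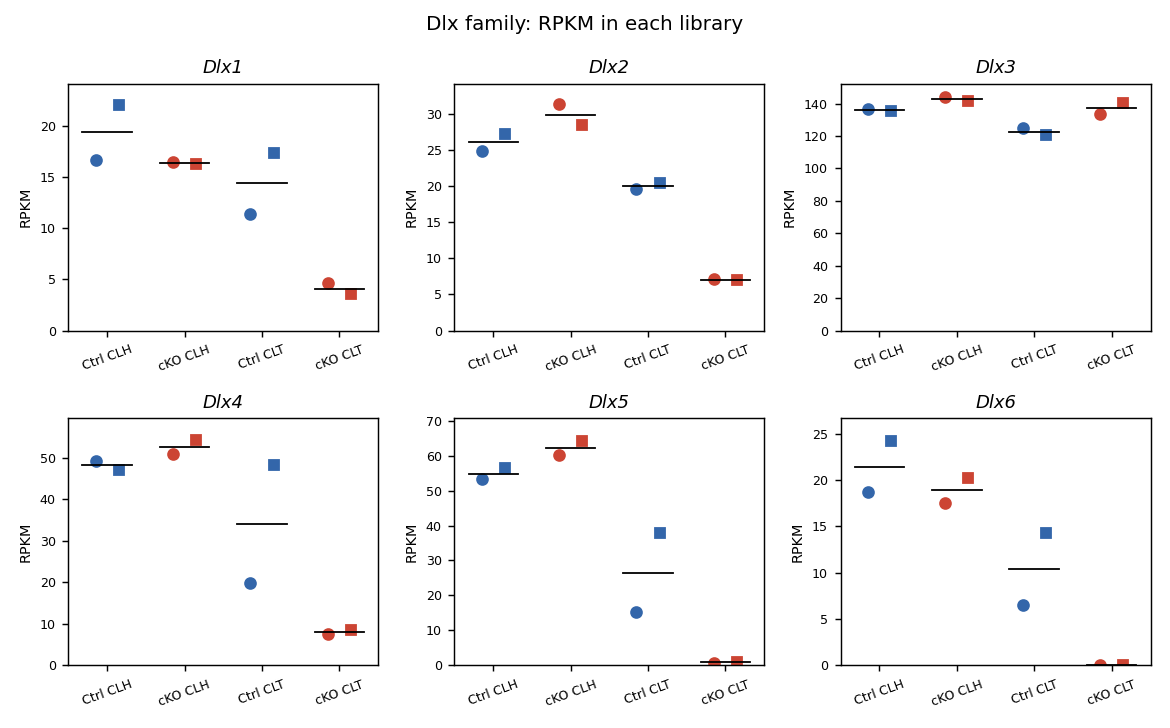
RPKM of each *Dlx* gene (vertical axis, starting at 0) in the 4 groups (horizontal axis). Circles are replicate 1, squares replicate 2 and bars the mean of the 2 libraries. *Dlx5* and *Dlx6* sat at or under 0.99 RPKM in cKO CLT, while *Dlx3* stayed between 120.5 and 143.9 RPKM in the 8 libraries.

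In Ctrl CLH the order of the mean levels was *Dlx3*, *Dlx5*, *Dlx4*, *Dlx2*, *Dlx6* and *Dlx1*, and the values of *Dlx6* and *Dlx1* overlapped. The means there were 136.0 ± 0.9 RPKM (SD, n = 2) for *Dlx3*, 54.8 ± 2.2 for *Dlx5*, 48.1 ± 1.5 for *Dlx4*, 26.1 ± 1.7 for *Dlx2*, 21.4 ± 3.9 for *Dlx6* and 19.4 ± 3.8 for *Dlx1*. The same order held in cKO CLH, with no overlap between neighbours. In Ctrl CLT the order was *Dlx3*, *Dlx4*, *Dlx5*, *Dlx2*, *Dlx1* and *Dlx6*, and each neighbouring pair other than *Dlx3* with *Dlx4* and *Dlx2* with *Dlx1* overlapped. The SD of the pair there was 16.1 RPKM about a mean of 26.5 for *Dlx5*, 5.45 about 10.4 for *Dlx6*, 4.22 about 14.4 for *Dlx1* and 3.03 about 122.6 for *Dlx3*. In cKO CLT the order was *Dlx3*, *Dlx4*, *Dlx2*, *Dlx1*, *Dlx5* and *Dlx6*, at 136.9 ± 4.7, 8.02 ± 0.68, 7.04 ± 0.10, 4.07 ± 0.76, 0.85 ± 0.20 and 0.017 ± 0.024 RPKM (SD, n = 2), with no overlap between neighbours.

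The make-up of the family differed accordingly. *Dlx3* gave 43.3% to 45.7% of the summed RPKM of the 6 members in the CLH libraries, 63.2% in Ctrl CLT 1, 46.6% in Ctrl CLT 2, against 87.0% and 87.5% in cKO CLT. *Dlx5* gave 17.8% to 19.7% in the CLH libraries, 7.66% and 14.6% in Ctrl CLT, with 0.463% and 0.618% in cKO CLT. The sum itself was 299.4 to 325.1 RPKM in CLH, 197.3 and 258.6 RPKM in Ctrl CLT, with 153.6 and 160.3 RPKM in cKO CLT.

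The comparison of cKO with Ctrl in CLT asks how the progeny tissue differs when *Med1* is deleted. *Dlx2* passed the test as lower in cKO, at a log2 fold change (cKO over Ctrl) of -1.39 (SE 0.14, adjusted p = 0.046). It was the only member called, 1 of 6, where 1.68% of all genes tested were called lower, 0.0777% higher and 1.75% in either direction. The value was -3.76 for *Dlx5* (SE 0.48, adjusted p = 0.057) and, for *Dlx6*, -3.40 (SE 0.40, adjusted p = 0.052). *Dlx1* had -1.58 (SE 0.27, adjusted p = 0.065) and *Dlx4* had -1.83 (SE 0.46, adjusted p = 0.090), so that these 4 genes missed the threshold of 0.05. At an unadjusted p under 0.05 there were 5 members and 5116 of all genes tested. *Dlx3* had 0.16 (SE 0.14, adjusted p = 0.44), with a 95% confidence interval from -0.22 to 0.54. These fold changes are on the scale of log2(RPKM + 1), which understates the change of genes at low levels.

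Without Ctrl CLT 1, which leaves 1 Ctrl library assumed to vary like the cKO libraries, 5 of 6 members were called lower, where 38.1% of all genes tested were. The log2 fold changes were then -1.87 for *Dlx1*, -1.42 for *Dlx2*, -2.45 for *Dlx4*, -4.39 for *Dlx5* and -3.91 for *Dlx6*, with adjusted p-values from 7.2e-06 to 3.4e-04, and 0.18 for *Dlx3* (adjusted p = 0.16). Without Ctrl CLT 2 in its place, the same count of 5 was called lower, where 23.0% of all genes tested were, with log2 fold changes from -3.13 for *Dlx5* to -1.21 for *Dlx4*. With no filter on low values, and by voom on the reads recovered from the RPKM, *Dlx2* was not called either, and with all 8 libraries in 1 fit 5 members were, as were 2831 of all genes tested as lower and 3352 as higher. The adjusted p of *Dlx2* ran from 0.00023 to 0.462 over the alternatives. With a replicate block 5 members were called lower, where 6.05% of all genes tested were, but the replicate numbers were not read as a pairing. With either cKO CLT library left out, 0 members were called by limma, where 0.0777% of all genes tested were called lower, and 5 had an unadjusted p under 0.05, as had 1522 and 1473 of the 14148 genes. The groups did not overlap for these 5 members, lower in cKO, which was the case for 35.1% of all genes tested, and for *Dlx3*, higher in cKO, which was the case for 37.2%.

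On the scale of reads over the library total, pooled over the libraries of a group, *Dlx5* was 30.6-fold lower in cKO CLT (95% counting interval 23.9 to 39.7), from 2036 against 66 reads. For *Dlx6*, with 611 against 1 read, the ratio was 605 (counting interval 108 to 23900), and its fitted log2 fold change depends on the pseudocount. The ratio was 3.50 for *Dlx1*, 2.84 for *Dlx2*, 4.16 for *Dlx4* and 0.896 for *Dlx3*, and it moved to 4.27, 2.90, 6.01 and 0.880 without Ctrl CLT 1. With Ctrl CLT 1 left out it was 44.6 for *Dlx5*, and 17.8 with Ctrl CLT 2 left out, while *Dlx6* had 845 and 388 in that order, and *Dlx4* had 2.47 without Ctrl CLT 2. The intervals cover counting error only and not the spread between libraries.

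The median log2 fold change of the 6 members was -1.71, and it was the same with *Dlx6* set to the floor of 3 reads, beside a median of -0.01 over all genes tested. The place of Ctrl CLT 1 between Ctrl CLT 2 and the mean of the cKO CLT libraries, a measure chosen after the values were seen, differed among the members. It was 6.06% of the way for *Dlx2*, 44.7% for *Dlx1*, 54.2% for *Dlx6*, 61.4% for *Dlx5*, 70.6% for *Dlx4* and 26.0% for *Dlx3*. The same measure had a median of 32.2% over the hair genes, 31.1% over the skeletal muscle markers and 63.7% over the jaw patterning genes. It was negative over the enamel genes, at -34.9%, and over the neural and Schwann markers, at -16.6%, where Ctrl CLT 1 lay away from the cKO CLT libraries.

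In CLH, the stem cell tissue, 0 of 6 members were called by limma, as were 0% of all genes tested in either direction. At an unadjusted p under 0.05 there was 1 member, *Dlx5*, and 1027 of all genes tested, and voom called 0, with 1190 genes at that unadjusted p. The log2 fold change of *Dlx5* was 0.18 (SE 0.06, adjusted p = 0.69), with a 95% confidence interval from 0.01 to 0.35. *Dlx2*, *Dlx4* and *Dlx3* had 0.19 (SE 0.08), 0.12 (SE 0.06) and 0.07 (SE 0.05), and *Dlx1* and *Dlx6* had -0.22 (SE 0.14) and -0.17 (SE 0.15). The adjusted p-values of these 5 members ran from 0.69 to 0.78. The intervals of the 6 members lay between -0.59 and 0.41, which bounds the changes that these libraries allow. The cKO values were all above the Ctrl values for 4 members, as for 19.9% of all genes tested, and all below for *Dlx1*, as for 18.8%.

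**Figure D2:**
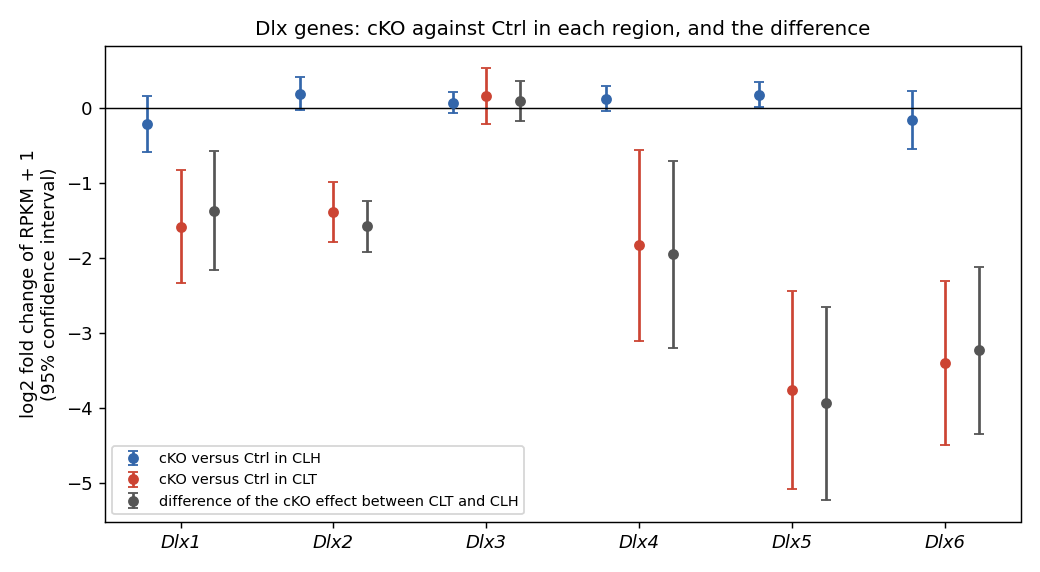
Log2 fold change of RPKM + 1 (vertical axis) of the 6 *Dlx* genes (horizontal axis) between cKO and Ctrl in CLH and in CLT, and the difference of these effects. Points are estimates and bars 95% confidence intervals. In CLH the estimates lay from -0.22 to 0.19, and in CLT from -3.76 for *Dlx5* to 0.16 for *Dlx3*.

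Whether the effect in CLT differs from that in CLH was tested over all 8 libraries. The effect was lower in CLT for 5 of 6 members, where 9.58% of all genes tested were called lower, 8.05% higher and 17.6% in either direction. The difference of the log2 fold changes was -3.94 for *Dlx5* (SE 0.53, adjusted p = 0.0099), -3.23 for *Dlx6* (SE 0.46, adjusted p = 0.012) and -1.58 for *Dlx2* (SE 0.14, adjusted p = 0.0032). It was -1.37 for *Dlx1* (SE 0.33, adjusted p = 0.039) and -1.95 for *Dlx4* (SE 0.51, adjusted p = 0.049). *Dlx3* had a difference of 0.09 (SE 0.11, adjusted p = 0.58), which turned to -0.04 under quantile normalization. Without Ctrl CLT 1 the count was again 5, where 34.7% of all genes tested were called lower, and it was 5 without Ctrl CLT 2, where 20.1% were. With a filter on mean RPKM, and with no variance trend, 4 were called, without *Dlx4*, where 9.73% and 9.37% of all genes tested were called lower. With no filter *Dlx2*, *Dlx5* and *Dlx6* were called, where 6.00% were, and by voom *Dlx1*, *Dlx2* and *Dlx5*, where 8.32% were. Leaving out any 1 of the CLH or cKO CLT libraries left 1 member called, *Dlx2*, where 1.39% to 1.87% of all genes tested were called lower.

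The regions were also compared within each genotype. In Ctrl, 0 of 6 members were called by limma between CLT and CLH, where 0% of all genes tested were called lower and 0.00707% higher, and *Dlx2* alone had an unadjusted p under 0.05, as had 1860 of all genes tested, and voom called 0, with 1852 genes at that unadjusted p. The CLT values were below the CLH values for 4 members, as for 36.8% of all genes tested. The median log2 fold change of the members was -0.52. When Ctrl CLT 1 was left out, limma called no member, where 1.40% of all genes tested were called lower, and 3 had an unadjusted p under 0.05, as had 5546 of the 14148 genes. *Dlx5* then had -0.52 (SE 0.06, adjusted p = 0.053) and *Dlx4* had 0.00 (SE 0.06). Without Ctrl CLT 2, 4 members were called lower, *Dlx2*, *Dlx4*, *Dlx5* and *Dlx6*, where 34.9% of all genes tested were, so that the difference between the regions of Ctrl mice rested on which Ctrl CLT library was read.

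In cKO, 5 of 6 members were lower in CLT than in CLH, where 45.1% of all genes tested were called lower, 28.9% higher and 74.0% in either direction. The groups did not overlap for the 6 members, lower in CLT, as for 52.3% of all genes tested, while 34.5% were higher without overlap. The log2 fold changes were -5.10 for *Dlx5* (SE 0.11), -4.29 for *Dlx6* (SE 0.11), -2.57 for *Dlx4* (SE 0.09), -1.94 for *Dlx2* (SE 0.09) and -1.79 for *Dlx1* (SE 0.12), with adjusted p-values from 2.6e-09 to 2.3e-06. *Dlx3* had -0.06 (SE 0.08, adjusted p = 0.54). The median over all genes tested was -0.18 here and -0.13 in Ctrl, and it was 0.01 in each genotype under median-of-ratios scaling, where *Dlx3* turned to 0.15 in cKO and 0.02 in Ctrl. The other 5 members were called lower in cKO under that scaling. Under quantile normalization *Dlx3* was called lower in cKO as well, at -0.25 (adjusted p = 0.015, beside 0.015 to 0.85 over the alternatives), so that its direction between the regions depended on the scaling.

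The likeness of the profiles over the 8 libraries was measured by Pearson's r of log2(RPKM + 1), as a description. The values share the pair of cKO CLT libraries, which carry most of the variation. Among *Dlx1*, *Dlx2*, *Dlx4*, *Dlx5* and *Dlx6*, r ran from 0.957 (*Dlx2* with *Dlx4*) to 0.996 (*Dlx5* with *Dlx6*), and without the cKO CLT libraries, over 6 libraries, it ran from 0.511 (*Dlx1* with *Dlx2*) to 0.961 (*Dlx5* with *Dlx6*). *Dlx3* had r from -0.115 to 0.066 with the other members, and without the cKO CLT libraries from 0.304 with *Dlx1* to 0.950 with *Dlx2*. The genes most like *Dlx5* were *Serpinh1*, a collagen chaperone gene, *Pkdcc* and *Adamts17*, each at an r of at least 0.999. Those most like *Dlx6* were *Armcx6*, *Foxf2* and *Ppox* (0.999 each), and those most like *Dlx4* were *Itga10*, *Alx4* and *Nfatc4* (0.999 each). *Dlx1* was most like *Ddb2*, *Msrb2* and *Ubxn8* (0.997, 0.996 and 0.996) and *Dlx2* most like *Sdr39u1*, *BC037034* and *Tcp11* (0.998, 0.996 and 0.995). *Dlx3* was most like *Nup214*, *U2af2* and *Mier2* (0.989, 0.979 and 0.978).

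The genes lie in 3 places of the mm10 genome, by the coordinates of the expression table. *Dlx1* is at chr2:71529445-71533980 and *Dlx2* at chr2:71543408-71546754, with 9427 bases between them. *Dlx6* is at chr6:6863334-6867970 and *Dlx5* at chr6:6877805-6882068, with 9834 bases between them. *Dlx3* is at chr11:95120117-95125291 and *Dlx4* at chr11:95140447-95145801, with 15155 bases between them. In the GENCODE M21 annotation, *Dlx1*, *Dlx3* and *Dlx6* are on the plus strand and *Dlx2*, *Dlx4* and *Dlx5* on the minus strand. In cKO CLT, both genes of the chromosome 2 and chromosome 6 pairs had values under those of Ctrl CLT, whereas of the chromosome 11 pair this held for *Dlx4* alone. Of all genes tested, 35.1% were lower in cKO CLT without overlap and 37.2% higher.

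Transcripts run antisense to some members. *Dlx6as1*, the long noncoding RNA also called Evf2 or *Dlx6os1*, spans *Dlx6* at chr6:6820546-6869533. It was at 25.4 and 28.5 RPKM in Ctrl CLH, with 25.7 and 22.9 in cKO CLH. Its CLT values were 4.31 and 29.4 RPKM in Ctrl against 0.050 and 0.017 RPKM in cKO. Its cKO CLT values came from 6 and 2 reads, and its level in Ctrl CLT 1 was far below that in Ctrl CLT 2. The log2 fold change in CLT was -3.62 (SE 0.90, adjusted p = 0.089) and the difference of the effects between the regions -3.47 (SE 1.02, adjusted p = 0.062), neither past the threshold, whereas without Ctrl CLT 1 the change in CLT was -4.88 (SE 0.11, adjusted p = 4.8e-06) and without Ctrl CLT 2 it was -2.36 (SE 0.09, adjusted p = 9.5e-05).

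*Dlx1as*, at chr2:71530638-71537891, overlaps *Dlx1*. It was at 13.8 and 14.8 RPKM in Ctrl CLH, with 13.4 and 13.5 in cKO CLH. In CLT it had 3.94 and 12.4 RPKM in Ctrl against 4.30 and 4.13 RPKM in cKO, so that Ctrl CLT 1 lay below both cKO CLT libraries. Its log2 fold change in CLT was -0.64 (SE 0.53, adjusted p = 0.42), -1.36 without Ctrl CLT 1 (adjusted p = 3.1e-04) and 0.08 without Ctrl CLT 2 (adjusted p = 0.61). The difference of its effects between the regions was -0.56 (SE 0.595, adjusted p = 0.52). The kit used for the libraries does not mark strand and a strand setting is not stated, so reads of a gene and of its antisense partner cannot be told apart where their exons overlap. Such exons hold 6.21% of the exonic bases of *Dlx1*, 4.38% of those of *Dlx6* and 2.42% of those of *Dlx4* in GENCODE M21, whose gene models differ from those of the table. *Dlx2*, *Dlx3* and *Dlx5* share no exonic base with the antisense genes examined. The part of antisense reads in the *Dlx* values was not tested.

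**Figure D3:**
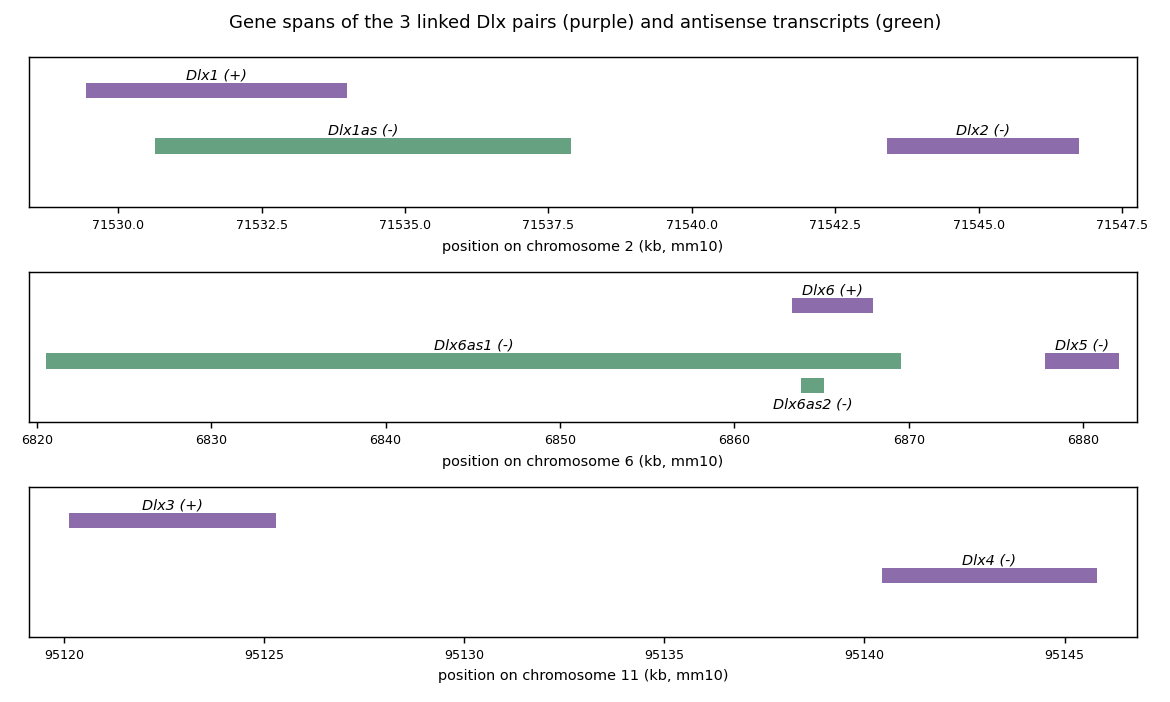
Spans of the *Dlx* genes (purple) and their antisense transcripts (green) along chromosomes 2, 6 and 11, in kilobases of mm10, from the expression table. Genes on the plus strand are drawn above those on the minus strand, and *Dlx6as1* covers the whole span of *Dlx6*.

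The sequences before the starts of 2 of the 6 members, *Dlx1* and *Dlx2*, and of *Dlx6os1* were matched in the RefSeq promoter table for GRCm38.p6, the build also called mm10. The transcripts concerned were lower in each cKO CLT library than in each Ctrl CLT library, as were 35.1% of all genes tested. The sequences are shown to compare their content of TAATT, the core of the sites that Dlx homeodomains bind. Entries for *Dlx3*, *Dlx4*, *Dlx5* and *Dlx6* were missing. Each sequence is the 250 bases before the start, from 5′ to 3′ on the strand of the gene, with matches to TAATT or its reverse complement AATTA in capitals. TAATTA, in which the motifs overlap, counts as 2 matches. The windows are chr2:71529195-71529444 on the plus strand for *Dlx1*, chr2:71546755-71547004 on the minus strand for *Dlx2* and chr6:6869534-6869783 on the minus strand for *Dlx6os1*.
Dlx1: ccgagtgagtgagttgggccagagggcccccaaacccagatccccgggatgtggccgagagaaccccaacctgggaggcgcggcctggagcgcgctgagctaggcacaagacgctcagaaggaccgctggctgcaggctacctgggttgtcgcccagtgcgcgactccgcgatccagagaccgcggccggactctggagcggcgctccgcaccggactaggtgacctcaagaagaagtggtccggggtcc
Dlx2: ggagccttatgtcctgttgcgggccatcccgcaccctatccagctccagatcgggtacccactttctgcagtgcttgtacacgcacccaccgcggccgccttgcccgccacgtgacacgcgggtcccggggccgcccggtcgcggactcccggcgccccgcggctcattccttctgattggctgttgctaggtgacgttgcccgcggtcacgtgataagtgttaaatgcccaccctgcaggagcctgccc
Dlx6os1: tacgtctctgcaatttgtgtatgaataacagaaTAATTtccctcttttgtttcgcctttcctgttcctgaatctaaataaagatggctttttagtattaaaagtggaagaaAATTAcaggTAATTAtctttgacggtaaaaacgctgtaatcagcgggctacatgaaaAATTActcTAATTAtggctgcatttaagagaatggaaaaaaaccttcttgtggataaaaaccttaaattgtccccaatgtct
The windows of *Dlx1* and *Dlx2* held 0 matches and that of *Dlx6os1* held 7. A second start of *Dlx6os1* in the table, with its window at chr6:6861684-6861933, held 4, the window of *Dlx6os2* held 1 and that of *Dlx4os* held 0, and these are not shown. Of 32851 promoter windows of this length, 25.0% held at least 1 match. A match is a description of the sequence and not a site, and a window without a match says nothing about sites elsewhere.

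The genes around the family were described by lists. Among homeobox partners, *Msx1*, whose protein can pair with Dlx proteins, was at 2.83 and 6.23 RPKM in Ctrl CLT, against 1.07 and 1.52 RPKM in cKO CLT, and its log2 fold change was -1.20 (SE 0.38, adjusted p = 0.11), or -1.66 without Ctrl CLT 1 (adjusted p = 3.9e-04) and -0.75 without Ctrl CLT 2 (adjusted p = 0.010). *Msx2* was at 78.8 and 89.9 RPKM in Ctrl CLT, against 76.3 and 70.4 RPKM in cKO CLT, and its log2 fold change was -0.20 (SE 0.15, adjusted p = 0.39), or -0.29 without Ctrl CLT 1 (adjusted p = 0.057). *Msx3* had 0 reads in the 8 libraries. *Msx2*, like *Dlx3*, was thus abundant in cKO CLT.

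Of 16 signals and factors known to act upstream of *Dlx* genes, 15 were tested, with a median log2 fold change of 0.09. In cKO CLT 1 was higher and 0 lower, where 0.0777% of all genes tested were called higher and 1.68% lower. The one called was *Tfap2a*, a neural crest and ectoderm factor, which fell outside the rule for naming genes and was named after its value was seen. On the scale of log2(RPKM + 1) the largest changes were those of *Tfap2b*, a relative of *Tfap2a*, at 2.95 and 0.018 RPKM in Ctrl CLT, against 11.1 and 9.51 RPKM in cKO CLT, of *Lef1*, a mediator of Wnt signalling, at 7.85 and 2.80 against 21.8 and 20.9 RPKM, and of *Edn1*, the ligand upstream of *Dlx5* and *Dlx6* in the lower jaw, at 5.09 and 2.53 against 16.8 and 16.5 RPKM. That order depended on the pseudocount. *Fgf9*, a growth factor gene named after its values were seen, was at 0.69 and 1.89 RPKM against 0.15 and 0.071 RPKM, and its log2 change was -0.99 (adjusted p = 0.12), or -2.61 with a pseudocount of 0.1, where *Lef1* had 2.16 and *Edn1* 2.18. The log2 change of *Edn1* was 1.93 (SE 0.31, adjusted p = 0.064), short of the threshold, and 2.32 without Ctrl CLT 1 (adjusted p = 4.5e-05), where 7 of the 15 were called higher and 7 lower, beside 31.4% and 38.1% of all genes tested.

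Genes that act with or below *Dlx5* and *Dlx6* in jaw patterning formed another list. Of 11 listed, 8 were tested, and 0 were higher and 1 lower in cKO CLT, where 0.0777% of all genes tested were called higher and 1.68% lower. The one called was *Pitx1*, a hindlimb and lower jaw homeobox gene at 3.35 and 2.41 RPKM in Ctrl CLT, against 0.044 and 0.045 RPKM in cKO CLT, named after its value was seen. *Hand2*, a factor of the distal lower jaw, was at 10.8 and 29.3 RPKM in Ctrl CLT, against 0 and 0.016 RPKM in cKO CLT, from 2446 against 1 read, a ratio of 2420 (counting interval 434 to 95700), or 3620 without Ctrl CLT 1 and 1340 without Ctrl CLT 2. *Bmper*, a modulator of BMP signalling named after its values were seen, went the other way, at 1.28 and 1.82 RPKM against 3.19 and 3.62 RPKM, with a log2 change of 0.79 (SE 0.21, adjusted p = 0.093). The median log2 fold change of the 8 was -1.76, and -2.71 with the 3 genes of at most 3 reads in cKO CLT set to that floor. Of the 8, 1 was called higher and 7 lower without Ctrl CLT 1, beside 31.4% and 38.1% of all genes tested.

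Enamel genes linked to *Dlx3* and *Dlx2* were low in cKO CLT, where *Dlx2* was called lower and *Dlx3* was not called. Of 10 listed, 9 were tested, and 8 were lower and 0 higher, with a median log2 fold change of -8.76, beside 1.68% of all genes tested called lower and 0.0777% higher. *Amelx*, the amelogenin gene, was at 48799 and 18601 RPKM in Ctrl CLT, against 6.57 and 3.68 RPKM in cKO CLT with a fitted log2 change of -12.31 (SE 0.57, adjusted p = 0.02). *Ambn* and *Enam*, which encode the other main enamel matrix proteins, had -12.30 (SE 0.57) and -9.67 (SE 0.36). All 9 were lower without Ctrl CLT 1, beside 38.1% of all genes tested.

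Bone and dentin genes linked to *Dlx5* and *Dlx3* were low as well. Of 12 tested, 8 were lower and 0 higher in cKO CLT, with a median of -4.64, beside 1.68% of all genes tested called lower and 0.0777% higher. For *Dspp* the log2 change was -9.00 (SE 0.16, adjusted p = 0.0049), for *Bglap*, the osteocalcin gene, -8.16 (SE 0.19) and for *Alpl*, a mineralization phosphatase, -6.73 (SE 0.21). *Ibsp*, bone sialoprotein, had 0 reads in both cKO CLT libraries. *Col1a1*, a collagen gene of the list, was at 1067 and 1335 RPKM in Ctrl CLT, against 376 and 472 RPKM in cKO CLT. The count was 11 lower without Ctrl CLT 1, beside 38.1% of all genes tested.

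Hair and epidermal genes linked to *Dlx3* were high in cKO CLT and in Ctrl CLT 1. Of 13 hair genes tested, 0 were called in either direction, where 1.75% of all genes tested were. At an unadjusted p under 0.05 there was 1, beside 5116 of the 14148 genes. All 13 had a positive log2 fold change, with a median of 4.88. *Krt71*, an inner root sheath keratin, was at 1229 RPKM in Ctrl CLT 1, 1.30 in Ctrl CLT 2 and 3726 and 4189 RPKM in cKO CLT, and ran from 0.327 to 0.575 RPKM over the CLH libraries. *Krt25* and *Tchh* behaved likewise, at 623 and 1.14 against 1705 and 1873 RPKM and at 509 and 1.48 against 1636 and 1801 RPKM. Without Ctrl CLT 1 the median was 8.21 and 13 of 13 were called higher, beside 31.4% of all genes tested. With Ctrl CLT 2 left out in its place, the median was 1.61 and 13 of 13 were again called higher, beside 29.1%. *Dlx3* itself was at 124.8 and 120.5 RPKM in these Ctrl CLT libraries, whose hair genes summed to 3954 and 15.8 RPKM.

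Of 10 epidermal genes tested, 0 were called, where 1.75% of all genes tested were. At an unadjusted p under 0.05 there were 4, beside 5116 of the 14148 genes. All 10 had a positive log2 fold change, with a median of 3.68. All 10 were called higher without Ctrl CLT 1, at a median of 5.69 and beside 31.4% of all genes tested. All 10 were also called with Ctrl CLT 2 left out, at a median of 1.61 and beside 29.1%. *Sprr1a*, of the cornified envelope, was at 407 and 0.19 RPKM in Ctrl CLT, against 1047 and 1219 RPKM in cKO CLT. *Ivl* was at 47.2 and 0.14 against 149 and 151 RPKM, and *Dsc1* at 17.8 and 0.020 against 87.5 and 84.3 RPKM.

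Markers of other tissues were summed in the same libraries. The 8 epithelium markers summed to 1535 and 916 RPKM in Ctrl CLT, with 2078 and 2335 RPKM in cKO CLT, led by *Krt5*, at 633 and 436 against 936 and 1079 RPKM. *Krt15* was at 146 and 15.7 against 322 and 353 RPKM and *Epcam* at 43.2 and 20.2 against 84.2 and 78.1 RPKM. Among the 8 markers, 6 had a positive and 2 a negative log2 fold change. One of the latter was *Itga6*, named after its values were seen, at 30.3 and 43.1 against 18.3 and 17.5 RPKM. Of these 8, 0 were called higher and 1 lower by limma, and 6 had an unadjusted p under 0.05, while without Ctrl CLT 1 there were 6 higher and 2 lower.

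The 11 mesenchyme markers summed to 2897 and 4152 RPKM in Ctrl CLT, with 2282 and 2532 RPKM in cKO CLT, beside 3706 to 4698 RPKM in the CLH libraries. Of them, 0 were called by limma in either direction, where 1.75% of all genes tested were. At an unadjusted p under 0.05 there were 7, beside 5116 of the 14148 genes. Of the 11, 2 had a positive and 9 a negative log2 fold change. The median was -1.26, and -1.66 without Ctrl CLT 1. *Lum* was at 191 and 673 against 41.4 and 38.0 RPKM, *Pdgfra* at 13.5 and 38.5 against 6.03 and 5.76 RPKM and *Twist2* at 4.53 and 13.2 against 2.07 and 1.57 RPKM. *Col3a1* and *Dcn*, named after their values were seen, had positive log2 changes of 0.91 (SE 0.19, adjusted p = 0.075) and 0.14 (SE 0.34, adjusted p = 0.79), and *Col3a1* was at 527 and 456 against 874 and 979 RPKM. *Dcn* had -0.31 without Ctrl CLT 1 (adjusted p = 0.045), 0.58 without Ctrl CLT 2 (adjusted p = 0.0070) and -0.096 under quantile normalization, so that its direction was not settled. *Col1a1* and *Col1a2* stand in this list and in that of bone and dentin genes, and *Trp63* in the upstream and epithelium lists. All 11 had reads in the cKO CLT libraries, and the share of mesenchyme in the RNA was not measured.

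The 8 skeletal muscle markers summed to 671 RPKM in Ctrl CLT 1, 51.0 in Ctrl CLT 2, and 1846 and 2032 RPKM in cKO CLT, against 28.1 to 32.6 RPKM in CLH. *Acta1* was at 190 and 10.3 RPKM in Ctrl CLT, against 551 and 659 RPKM in cKO CLT, *Myh4* at 29.0 and 0.41 against 87.3 and 92.3 RPKM, and *Ckm* at 75.0 and 5.18 against 200.4 and 239.6 RPKM. Of them, 0 were called by limma and 3 had an unadjusted p under 0.05, and 8 of 8 were called higher with either Ctrl CLT library left out, beside 31.4% of all genes tested with the first left out and 29.1% with the second.

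The 8 neural and Schwann markers, *Tubb3* among them, summed to 96.9 and 75.4 RPKM in Ctrl CLT, with 120.3 and 124.7 RPKM in cKO CLT. Of the 7 tested, 1 was called higher and 1 lower, where 0.0777% of all genes tested were called higher and 1.68% lower. The median log2 fold change of the 7 was 0.48, and 0.39 without Ctrl CLT 1. The one called lower was *Gad1*, a GABA synthesis gene and a known *Dlx* target in the forebrain, at a log2 change of -4.39 (SE 0.35, adjusted p = 0.037), or -3.96 without Ctrl CLT 1 (adjusted p = 6.7e-06). *Sox10* was at 1.59 and 0.15 against 4.79 and 5.49 RPKM. The part of these cell types in the *Dlx* values was not tested.

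**Figure D4:**
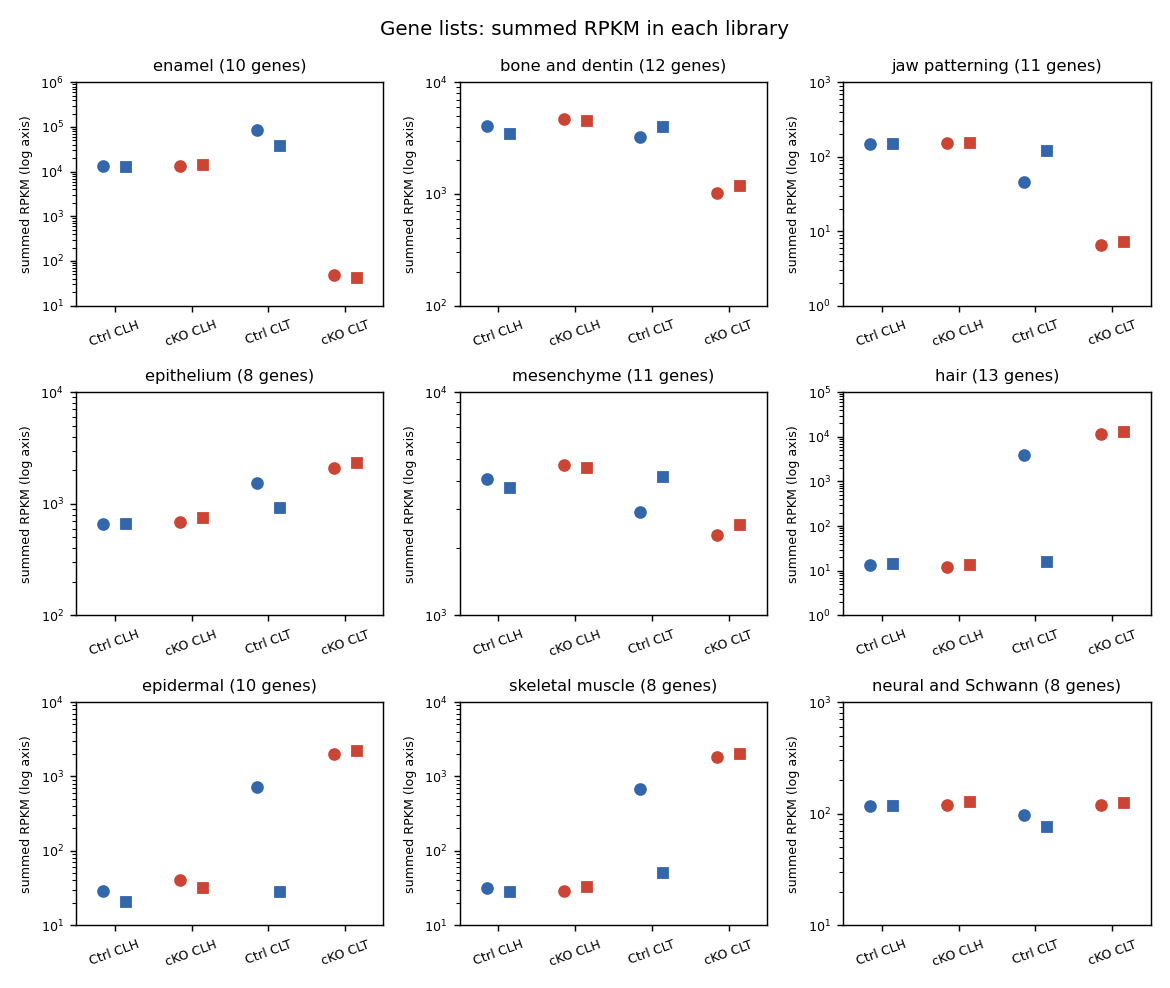
Summed RPKM of 9 gene lists (vertical log axes) in the 4 groups (horizontal axes). Circles are replicate 1 and squares replicate 2, and the number of genes in the table is given for each list. Hair genes summed to 3954 RPKM in Ctrl CLT 1, 15.8 RPKM in Ctrl CLT 2, and 11672 and 12750 RPKM in cKO CLT, while enamel genes summed to 47.9 and 41.2 RPKM there.

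In CLH, 0 genes of any of these lists were called, as were 0% of all genes tested in either direction. The expression of the enamel list in CLH was 12544 to 14355 RPKM, that of the bone and dentin list 3462 to 4654 RPKM and that of the jaw patterning list 147.8 to 154.5 RPKM, and these levels stood beside *Dlx* levels that did not pass the test between the genotypes.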

How the data were processed

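RNA-seq libraries of CLH and CLT from *Med1* cKO and littermate Ctrl mice were used, 2 in each of the 4 groups given by the labels. The libraries were made with a TruSeq v2 kit and read as paired ends. Per the submitters' processing notes and the study's methods, reads were checked with FastQC 0.72, trimmed with Trim Galore 0.4.3.1, aligned to mm10 with STAR 2.6.0b-1 and counted with featureCounts 1.6.3, and DESeq2 2.11.40.2 was named for differential expression. The authors deposited a table of RPKM values and gene lengths. The annotation, the strand setting and the total behind the RPKM are not given in the sources used here. On 69 rows, 26 names occurred more than once, and none of these was used by name.

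RPKM times gene length were whole multiples of 1 step per library for 99.95% of the nonzero values, within 0.01 reads. The step gave the reads behind each value and the library totals, and 82.2% to 85.6% of each total was on listed genes. A gene with no read allows up to 3 reads, and floors and intervals (exact binomial, 95%) reflect counting error alone.

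Values of log2(RPKM + 1) were tested with limma 3.58.1 (lmFit, then eBayes with trend) in R 4.3.3, two-sided, with Benjamini-Hochberg adjustment over the 14148 genes tested and a threshold of 0.05. Each comparison used its own 4 libraries, and the test of whether cKO effects differ by region used all 8. With 2 libraries on each side, exact permutation gives no p under 0.333. The study's methods and captions describe biological duplicates of pooled tissue from 2 litters, whereas the labels give the group and a replicate number alone. The code was tested on simulated data.

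The members, the 12 gene lists and the designs were chosen with earlier results of these data known. Genes named one by one were *Med1*, the *Dlx* genes, their listed antisense transcripts, in each list the 3 members with the largest change in CLT (all of a list of up to 4), the most abundant member of a cell type list by mean RPKM over the libraries, and the 3 genes most like each *Dlx* gene. Of these, 4 are not reported here. *Krt14*, *Pitx1*, *Tfap2a*, *Ibsp*, *Bmper*, *Fgf9*, *Col3a1*, *Dcn* and *Itga6* were added after their values were seen. *Dlx4os*, *Dlx5os*, *Krt72* and *Flg* of the lists were not analysed here. The alternatives were voom on the recovered reads, each library left out in turn, quantile normalization, median-of-ratios scaling, a pseudocount of 0.1 or 0.5, a filter on mean RPKM or none, eBayes without trend, a replicate block, and 1 fit over the 8 libraries. List counts without a Ctrl CLT library, and other named genes under these settings, were added after the data were seen.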

Additional observations from a re-analysis of the deposited data

Results flagged for a closer look

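The cKO effect differed between CLT and CLH for 5 of the 6 *Dlx* genes by the test of the difference itself over 8 libraries (limma, adjusted p under the threshold), all with a negative difference. The same test passed for 17.6% of all genes tested, with 9.58% negative, and 34.7% were negative without Ctrl CLT 1. The differences of the log2 fold changes, CLT minus CLH, were -1.37 for *Dlx1*, -1.58 for *Dlx2*, -1.95 for *Dlx4*, -3.94 for *Dlx5* and -3.23 for *Dlx6*. Each cKO CLT library was below each Ctrl CLT library for these 5 genes, as for 35.1% of all genes tested.

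Further named genes passed this test. Among genes linked to the family, the difference was -1.68 for *Msx1* and -4.35 for *Hand2*, and it was 2.05 for *Edn1* and 1.94 for *Lef1*. Among enamel genes it was -12.36 for *Amelx*, -12.55 for *Ambn* and -10.00 for *Enam*. Among bone and dentin genes it was -9.30 for *Dspp*, -8.26 for *Bglap*, -6.90 for *Alpl* and -1.99 for *Col1a1*. Among cell type markers it was -3.14 for *Lum* and -4.58 for *Gad1*. Of the list counts in this test, hair, epidermal and skeletal muscle genes had 0 calls with all 8 libraries, with 1, 3 and 3 genes at an unadjusted p under 0.05, as had 5375 of the 14148 genes tested, and 13, 10 and 8 higher calls without Ctrl CLT 1, where 28.5% of all genes tested were called higher.

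Over 17 alternatives each, the call of *Dlx2*, *Amelx*, *Ambn*, *Enam*, *Dspp*, *Bglap*, *Alpl* and *Gad1* was lost in 0. It was lost in 8 for *Dlx1*, 11 for *Dlx4*, 6 for *Dlx5*, 7 for *Dlx6*, 9 for *Msx1*, 7 for *Hand2*, 6 for *Edn1*, 13 for *Lef1*, 4 for *Col1a1* and 9 for *Lum*. The adjusted p of *Msx1* was 0.0466, that of *Lef1* 0.0486 and that of *Dlx4* 0.0489.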

How the results depend on the processing

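With 2 libraries a group and 1 Ctrl CLT library apart from the other, the counts of *Dlx* calls in CLT are the least stable values. The count of 1 in CLT became 2 with a pseudocount of 0.1 or 0.5 and under median-of-ratios scaling or quantile normalization (*Dlx2* and *Dlx6*), where 1.68% to 1.79% of all genes tested were called lower, 0 with no filter on low values, where more genes are tested and 0.0152% were called lower, 0 with voom on the recovered reads (0.127%), 5 with all 8 libraries in 1 fit (2831 of 14148 genes), and 0 to 5 with 1 library left out. The count of 5 in the difference between the regions became 3 with no filter (6.00% of all genes tested called lower) and with voom (8.32%), 4 with a filter on mean RPKM (9.73%) and with no variance trend (9.37%), and 1 to 5 with 1 library left out. The count of 0 between the regions in Ctrl ran from 0 to 4 with 1 library left out. Counts in cKO between the regions (5) and in CLH (0) stayed within 1.5 times of these values in each alternative, and in the former quantile normalization gave 6, *Dlx3* included. The cause of these moves was not tested where no reason is given.

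With a replicate block, 5 *Dlx* genes were called in CLT, where 6.05% of all genes tested were called lower, and 3 in the difference between the regions, where 6.61% were, and the block changed no other *Dlx* count. The labels do not say that a number marks a litter, and the deviations of same-numbered libraries had correlations over genes of -0.192 (cKO and Ctrl in CLT), 0.0656 (in CLH), 0.195 (CLT and CLH in Ctrl) and 0.307 (in cKO), so that the numbers were not read as a pairing.

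In CLT, no *Dlx* gene changed direction over 84 alternative values, with ranges of log2 fold change from -4.80 to -3.13 for *Dlx5*, -8.36 to -2.89 for *Dlx6*, -1.87 to -1.30 for *Dlx1*, -1.51 to -1.35 for *Dlx2*, -2.45 to -1.21 for *Dlx4* and 0.01 to 0.21 for *Dlx3*. *Dlx3* turned to -0.0437 in the difference between the regions under quantile normalization, and under median-of-ratios scaling to 0.0193 (Ctrl) and 0.154 (cKO) between CLT and CLH. *Dcn* in CLT turned to -0.0956 under quantile normalization. With 1 library left out, *Dcn* in CLT ran from -0.306 to 0.576, *Dlx6* in CLH ran from -0.344 to 0.0104, *Dlx4* between the regions in Ctrl from -1.24 to 0.00146, *Dlx1as* in CLT from -1.36 to 0.0790 and in the difference between the regions from -1.28 to 0.157.

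At these depths *Dlx6* and *Dlx6as1* in cKO CLT rest on 1 and 8 reads, and their levels there cannot be ranked against each other.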
